A study of Mus musculus with 24 samples.

Results

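Expression of Hif1a and of 9 genes known as targets of hypoxia-inducible factors was followed in mouse CD4 T cells at rest, after a first stimulation, after TH1 differentiation and after restimulation of TH1 cells. The 10 genes were Hif1a, Egln1, Egln3, Vegfa, Bnip3, Bnip3l, P4ha1, P4ha2, Ndrg1 and Kdm3a, taken by symbol from the 23420 gene symbols of the count tables. All 10 passed the filter on low counts, which left 12584 genes for testing. The study sequenced bulk RNA of sorted CD4 T cells in 4 groups with 6 libraries in each. The naive cells were isolated from spleen, and the activated naive cells were such cells after 6 hours with a stimulus that the labels do not name. TH1 effector cells had been differentiated in culture for 5 days into T helper 1 cells, the helper type that makes interferon gamma. Reactivated TH1 cells had in addition spent 6 hours with macrophages carrying antigen, and no group of TH1 cells kept with macrophages lacking antigen was analysed here. Every group, the naive controls included, carried the same transgenes, given in the labels as OT2Nur77GFP+/-. One is the OT-II T cell receptor, which directs CD4 T cells to an ovalbumin peptide, and the other places green fluorescent protein under the promoter of Nr4a1 (Nur77), a gene switched on by receptor signals. The strain, on a C57BL/6 background, combines the transgenes Tg(Nr4a1-EGFP/cre)820Khog and Tg(TcraTcrb)425Cbn. Within each group the libraries carry numbers 1 to 6. Nothing in the labels says that they came from separate animals or cultures, so each p-value reflects only how far these libraries spread, which may be technical.

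Hypoxia-inducible factor 1 is a transcription factor made of an alpha subunit, encoded by Hif1a, and a stable partner encoded by Arnt. When oxygen is present, prolyl hydroxylases such as the products of Egln1 and Egln3 mark the alpha subunit for recognition by the VHL protein and for destruction, and the factor binds DNA at short hypoxia response elements when the alpha subunit is spared. The factor raises genes of glycolysis, vessel growth, mitochondrial removal and collagen processing, and Egln3 and Egln1 are themselves among its targets. In T cells, receptor and growth signals are known to raise Hif1a also in the presence of oxygen. These data are messenger RNA levels only and hold no measure of oxygen or of the HIF1 protein.

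The gene counts ranged from 18457653 to 34262645 per library, and the group means lay between 22938456 (naive) and 29181829 (reactivated TH1). Levels are given as CPM, counts scaled to a common library total. All 13 markers of CD4 T cells found in the tables exceeded a mean of 1 CPM in every group. A list of 20 macrophage markers summed to 14.7 to 21.1 CPM in reactivated TH1 libraries, against 5.1 to 6.25 CPM in TH1 effector, 10.7 to 13 CPM in activated naive and 8.12 to 11.6 CPM in naive ones. Of these, 8 had no count in TH1 effector libraries (Csf1r, Emr1, Fcgr1, C1qa, C1qb, C1qc, Marco and Msr1), and in reactivated TH1 libraries Marco alone had none, while Lyz2 averaged 5.98 CPM and Csf1r 0.724 CPM. A list of B cell markers, of which 9 were found, summed to 5.23 to 23.4 CPM in TH1 effector libraries and to at most 3.99 CPM in any other group. Markers of CD8, NK and innate cells summed to 26.9 to 34.1 CPM in naive, 9.87 to 18.5 CPM in activated naive, 120 to 194 CPM in TH1 effector and 982 to 1500 CPM in reactivated TH1 libraries, where Nkg7 alone averaged 1020 CPM. Dendritic cell markers summed to 246 to 393 CPM in TH1 effector and up to 325 CPM in reactivated TH1 libraries, against at most 110 CPM in the naive groups, with Ly75 at 191 CPM and Batf3 at 126 CPM on average in TH1 effector libraries. Markers of neutrophils and red cells summed to 10.6 to 30.5 CPM in TH1 effector libraries and to at most 4.39 CPM elsewhere. The part of these markers in the results below was not tested. In bulk samples fewer cells with a transcript and less of it per cell cannot be told apart.

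The promoters of 4 members are shown because they carry the short core of the hypoxia response element and because the genes take different courses below. Egln3, Bnip3 and P4ha2 rose by 33.3 to 144-fold from naive to TH1 effector cells and fell on reactivation, whereas P4ha1, a paralog of P4ha2, rose 3.1-fold. On reactivation P4ha1 narrowly missed the threshold of edgeR's test (adjusted p = 0.0534) and passed as lower in 11 of 22 other settings. Each stretch has 300 bases, 250 before the start of the RefSeq transcript and 50 after it, in build GRCm38.p6, 5′ to 3′ along the gene. It lies at chr12:54203825-54204124 on the minus strand for Egln3, at chr7:138909457-138909756 on the minus strand for Bnip3, at chr10:59323046-59323345 on the plus strand for P4ha1 and at chr11:54100674-54100973 on the plus strand for P4ha2. Capitals mark the motif ACGTG on either strand, so that CACGT in capitals is a match on the opposite strand.
Egln3: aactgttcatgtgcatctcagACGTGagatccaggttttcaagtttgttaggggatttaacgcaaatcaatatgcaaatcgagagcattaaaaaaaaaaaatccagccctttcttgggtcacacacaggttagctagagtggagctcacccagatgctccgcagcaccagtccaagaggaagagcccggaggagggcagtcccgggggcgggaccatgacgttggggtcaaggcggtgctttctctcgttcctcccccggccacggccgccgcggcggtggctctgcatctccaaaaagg
Bnip3: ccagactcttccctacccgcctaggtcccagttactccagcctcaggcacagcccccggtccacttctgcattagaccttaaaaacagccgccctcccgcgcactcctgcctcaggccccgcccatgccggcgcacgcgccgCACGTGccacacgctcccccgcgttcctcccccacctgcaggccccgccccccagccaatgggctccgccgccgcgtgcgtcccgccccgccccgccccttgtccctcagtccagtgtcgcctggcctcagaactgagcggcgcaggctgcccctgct
P4ha1: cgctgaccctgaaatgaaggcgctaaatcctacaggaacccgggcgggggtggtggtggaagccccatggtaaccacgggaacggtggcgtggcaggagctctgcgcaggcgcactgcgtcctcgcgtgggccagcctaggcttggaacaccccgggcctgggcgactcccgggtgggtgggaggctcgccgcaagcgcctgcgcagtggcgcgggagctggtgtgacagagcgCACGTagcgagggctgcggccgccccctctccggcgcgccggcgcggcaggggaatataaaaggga
P4ha2: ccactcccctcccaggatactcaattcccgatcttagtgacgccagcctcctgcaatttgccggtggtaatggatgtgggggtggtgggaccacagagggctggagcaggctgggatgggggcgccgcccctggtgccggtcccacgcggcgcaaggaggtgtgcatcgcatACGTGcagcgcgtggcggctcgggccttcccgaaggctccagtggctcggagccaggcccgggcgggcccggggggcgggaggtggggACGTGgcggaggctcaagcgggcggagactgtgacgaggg
The RefSeq table held promoters for 8 of the 10 members, with 11 start sites among them (2 for Vegfa, 3 for Kdm3a). Bnip3l and Ndrg1 have no entry. ACGTG was found, on either strand, in 7 of these 11 promoters and in 19.6% of all 32851 promoters of this length in the table. The 7 belong to 7 of the 8 members, Kdm3a being the exception. For Vegfa the match is only at start site 2 (chr17:46025114-46025413), which lies inside the gene. Start site 1 of Vegfa (chr17:46032328-46032627) has none. In the promoter of Egln3 it occupies bases 22 to 26 of the window, far from the start, and in that of P4ha2 it occurs at bases 173 to 177 and 261 to 265, the second lying past the start. The match in P4ha1 is on the opposite strand, close to the start. Bnip3 holds CACGTG at bases 143 to 148, a palindrome that reads as ACGTG on both strands and is also the binding letters of E-box factors such as MYC. Hif1a holds the same 6 letters at bases 116 to 121. CACGTG occurs in 7.15% of all promoters of this length and the related core GCGTG in 32.4%. GCGTG was found 3 times in the window of Bnip3 and 2 times each in those of P4ha1 and P4ha2. These matches describe the letters only.

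Across the 4 states, TH1 effector cells held the highest mean level of 8 of the 10 genes, Ndrg1 being highest in reactivated TH1 cells and Kdm3a in naive cells. How many of all tested genes were highest in TH1 effector cells was not counted, so this number stands without a background. In TH1 effector against naive libraries 9 of the 10 rose and none fell, against 44.6% of all tested genes higher and 40.3% lower, and the median log2 fold change was 3.57 over the members and 0.06 over all genes. Only Kdm3a did not pass. After the first stimulation of naive cells, 4 rose (Hif1a, Egln3, Vegfa and Ndrg1) and 5 fell (Egln1, Bnip3, Bnip3l, P4ha2 and Kdm3a), against 41.3% and 40.5% of all genes, with medians of -0.36 and 0.00464. After restimulation of TH1 cells, 8 fell, 1 rose (Ndrg1) and P4ha1 did not pass, against 39.8% of all genes lower and 39.9% higher. The medians were -1.56 over the members and -0.00227 over all genes. The macrophage markers, given above, summed higher in the restimulated libraries, and their part in these falls was not tested. A gene passed where its adjusted p, from edgeR's quasi-likelihood test over all 12584 genes, was under 0.05.

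The remaining comparisons place the stimulated cells against each other, TH1 effector against activated naive cells and reactivated TH1 against naive cells. Reactivated TH1 cells exceeded activated naive cells in 8 members and were lower in 1, Kdm3a, against 43.4% and 36.4% of all genes, and Vegfa did not pass. TH1 effector cells exceeded activated naive cells in 10 of 10 members, against 45.6% higher and 41.2% lower over all genes. Reactivated TH1 cells stood above naive cells in 7 members and below them in Bnip3l and Kdm3a, against 47.9% and 39.8%, while Egln1 did not pass. The median log2 fold changes of these 3 comparisons were 1.21, 2.3 and 1.88 over the members and 0.08, 0.07 and 0.15 over all genes. The comparisons share groups, so their counts are not independent of each other.

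**Figure D1:**
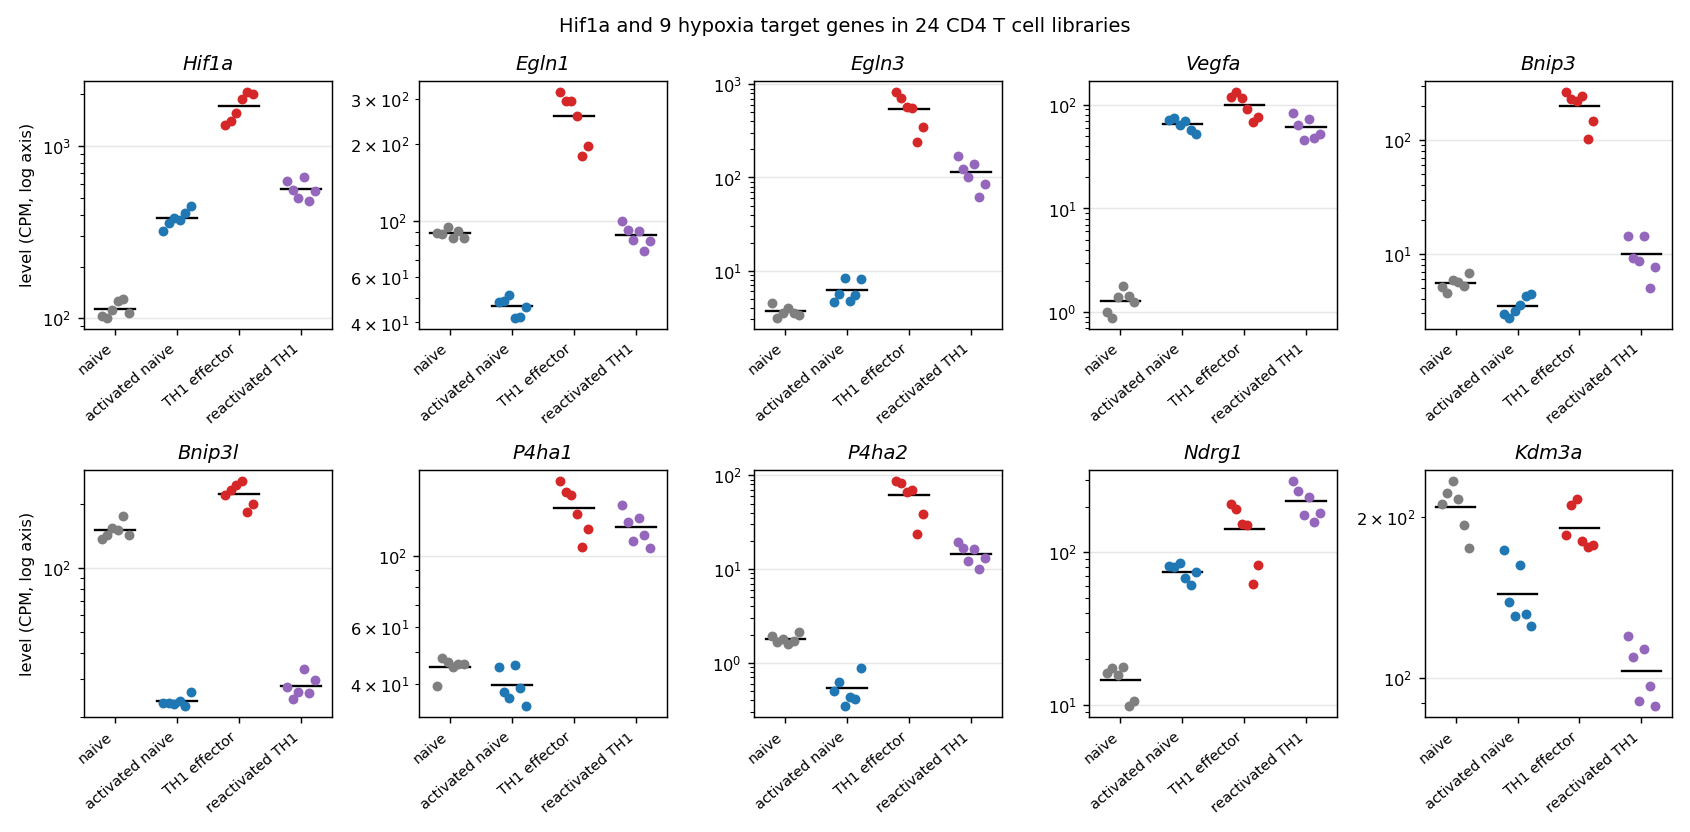
Level of each member in CPM on a log axis in the 24 libraries, by group, with 1 point per library (left to right numbers 1 to 6) and a line at the mean of the 6. In TH1 effector cells the points of Egln3, Bnip3 and P4ha2 lie above those of all other groups, and the means of Kdm3a have the smallest ratio of highest to lowest, from 103.2 to 208.2 CPM.

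Hif1a, which encodes the oxygen-regulated alpha subunit, lies at chr12:73901375-73947530 on the plus strand (GRCm38, GENCODE M21). It had a median of 109.6 CPM in naive libraries (lowest 101, highest 129.9), 378.3 in activated naive (320.3 to 447.3), 1725 in TH1 effector (1326 to 2058) and 555.7 CPM in reactivated TH1 libraries (480.8 to 662). No 2 groups overlapped. The order of the means, TH1 effector, reactivated TH1, activated naive and naive, passed the test at each step. Hif1a rose by a log2 fold change of 1.76 (SE 0.073, adjusted p = 9.65e-16, higher in 6 of 6 numbers) after the first stimulation and by 3.91 (SE 0.0628, adjusted p = 9.23e-22) from naive to TH1 effector cells. On restimulation of TH1 cells it fell by 1.58 on the log2 scale (SE 0.0911, adjusted p = 1.71e-14), lower in 6 of 6 numbers. Stimulation for 6 hours thus went with a 3.38-fold rise in naive cells and a 2.99-fold fall in TH1 cells. Exons of Hif1a share 330 bases with Gm15283 on the other strand and 148 bases with Gm49321 on its own, and its values are uncertain to that extent.

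Egln1 (chr8:124908587-124949324, minus strand) encodes PHD2, the main oxygen-sensing prolyl hydroxylase of the alpha subunit. Its median was 89.14 CPM in naive libraries (85.57 to 94.04), 47.01 in activated naive (41.82 to 51.38), 274.7 in TH1 effector (179.4 to 317.5) and 87.3 CPM in reactivated TH1 libraries (75.93 to 99.78). Naive and reactivated TH1 libraries overlapped and did not differ beyond their spread (log2 fold change -0.03, SE 0.0558, adjusted p = 0.762), and all other pairs of groups were apart. Egln1 fell with both stimulations, by 0.95 on the log2 scale (SE 0.0328, adjusted p = 7.15e-11) in naive cells and by 1.53 (SE 0.0949, adjusted p = 7.44e-15) in TH1 cells. Between them lay a rise of 1.51 (SE 0.0819, adjusted p = 6.55e-15) from naive to TH1 effector cells.

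Egln3 (chr12:54178981-54203860, minus strand) encodes PHD3, a prolyl hydroxylase known as a strongly inducible HIF target, and its promoter is the first shown above. It had a median of 3.533 CPM in naive libraries (3.146 to 4.462), 5.553 in activated naive (4.564 to 8.315), 562.6 in TH1 effector (238.05 to 819.8) and 111.9 CPM in reactivated TH1 libraries (61.32 to 170). All groups were apart, though the highest naive library and the lowest activated naive library were close. The rise of Egln3 from naive to TH1 effector cells, 144-fold (log2 7.17, SE 0.207, adjusted p = 3.23e-15), was larger than that of any other member. Restimulated TH1 cells had 4.66-fold less (log2 -2.22, SE 0.279, adjusted p = 1.71e-08) but still 18.3-fold more than activated naive cells (log2 4.20, SE 0.266, adjusted p = 5.79e-12). The rise after the first stimulation was small (log2 0.75, SE 0.189, adjusted p = 0.0259). That call was lost without naive number 2 or 3 (adjusted p = 0.0615 and 0.0538), without activated naive number 3 or 6 (0.0564 and 0.0733), and with library totals as the only scaling (0.0758).

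Vegfa (chr17:46016993-46032369, minus strand) encodes vascular endothelial growth factor A, the secreted ligand that drives vessel growth. Naive libraries had a median of 1.328 CPM (0.8891 to 1.787, from 26 to 39 counts), activated naive libraries 66.52 (52.77 to 73.99), TH1 effector libraries 103.1 (68.77 to 131.8) and reactivated TH1 libraries 58.05 CPM (45.98 to 84.05). The naive libraries stood far below the rest, and the other 3 groups overlapped with each other. Vegfa rose 51-fold within the first 6 hours of stimulation (log2 5.67, SE 0.136, adjusted p = 6.54e-18), the largest rise among the members in that comparison. Restimulated TH1 cells had less than TH1 effector cells (log2 -0.69, SE 0.17, adjusted p = 0.000168) in 6 of 6 numbers despite the overlap. Activated naive and reactivated TH1 cells did not differ beyond their spread (log2 -0.08, SE 0.172, adjusted p = 0.641).

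Bnip3 (chr7:138890836-138909519, minus strand) and Bnip3l (chr14:66985239-67008877, minus strand) encode related proteins of the outer mitochondrial membrane that mark mitochondria for removal by autophagy. Bnip3 had a median of 5.451 CPM in naive libraries (4.548 to 6.762), 3.358 in activated naive (2.762 to 4.41), 225.2 in TH1 effector (103 to 263.3) and 8.952 CPM in reactivated TH1 libraries (5.069 to 14.41). The TH1 effector libraries were apart from all others, and reactivated TH1 libraries overlapped only with naive ones. On restimulation Bnip3 fell 20.2-fold (log2 -4.34, SE 0.307, adjusted p = 4.15e-13), the largest fall among the members. Its fall in stimulated naive cells (log2 -0.66, SE 0.0947, adjusted p = 0.0298) was measured at low levels and was lost without naive number 6 (adjusted p = 0.0632) or without activated naive number 1, 2 or 3 (0.0666, 0.0693 and 0.0612). Exons of Bnip3 share 504 bases with Gm45507 on the other strand.

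Bnip3l started from a higher level, with a median of 146.9 CPM in naive libraries (137 to 175.4), 23.32 in activated naive (22.41 to 26.26), 226.1 in TH1 effector (183.7 to 256.2) and 26.79 CPM in reactivated TH1 libraries (24.24 to 33.38). Naive and TH1 effector libraries were high and activated naive and reactivated TH1 libraries low, with overlap only between the 2 low groups. Bnip3l fell 6.37-fold in naive cells (log2 -2.67, SE 0.0617, adjusted p = 3.43e-20) and 8.04-fold in TH1 cells (log2 -3.01, SE 0.0958, adjusted p = 2.87e-20). It rose 1.48-fold from naive to TH1 effector cells (log2 0.57, SE 0.0917, adjusted p = 2.45e-07), against 36.3-fold for Bnip3 (log2 5.18, SE 0.199, adjusted p = 3.31e-14). Reactivated TH1 libraries held slightly more Bnip3l than activated naive ones (log2 0.23, SE 0.0677, adjusted p = 0.0121).

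P4ha1 (chr10:59323296-59373304, plus strand) and P4ha2 (chr11:54100095-54131665, plus strand) encode alternative catalytic subunits of the collagen prolyl 4-hydroxylase, an enzyme distinct from those that modify HIF. P4ha1 had a median of 45.99 CPM in naive libraries (39.2 to 47.98), 38.15 in activated naive (34 to 45.52), 144.4 in TH1 effector (106.3 to 170.7) and 121.6 CPM in reactivated TH1 libraries (105.7 to 143.5). The 2 naive groups overlapped, the 2 TH1 groups overlapped, and the TH1 groups lay above the naive ones. Neither stimulation passed the test for P4ha1. Its log2 fold change was -0.19 (SE 0.0911, adjusted p = 0.0624) in naive cells and -0.20 (SE 0.0879, adjusted p = 0.0534) in TH1 cells. These values come from the unpaired model. A fit with a term for the library numbers (replicate block) gave an adjusted p of 0.041 in naive cells and 0.0394 in TH1 cells.

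P4ha2 had a median of 1.772 CPM in naive libraries (1.583 to 2.16), 0.4706 in activated naive (0.345 to 0.882, from 9 to 18 counts), 68.06 in TH1 effector (23.58 to 86.95) and 14.63 CPM in reactivated TH1 libraries (10.03 to 19.21). No 2 groups overlapped. P4ha2 fell in both stimulations, by 1.79 on the log2 scale (SE 0.221, adjusted p = 7.47e-05) in naive cells and by 2.04 (SE 0.275, adjusted p = 4.99e-09) in TH1 cells. From naive to TH1 effector cells it rose 33.3-fold (log2 5.06, SE 0.247, adjusted p = 1.02e-14), where P4ha1 rose 3.1-fold (log2 1.63, SE 0.0707, adjusted p = 2.18e-14). The difference between these paralogs was not tested.

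Ndrg1 (chr15:66929318-66969640, minus strand) encodes a cytoplasmic protein of stress and growth responses. Its median was 16.03 CPM in naive libraries (9.799 to 17.77), 77.02 in activated naive (61.05 to 84.88), 153.3 in TH1 effector (61.75 to 207.8) and 206.6 CPM in reactivated TH1 libraries (157.98 to 294.3). TH1 effector libraries spread widely and overlapped with both stimulated groups, and naive libraries were apart from all others. Ndrg1 was the only member that passed the test as higher in both stimulations. The rise was 5.17-fold in naive cells (log2 2.37, SE 0.143, adjusted p = 4.57e-10) and 1.57-fold in TH1 cells (log2 0.65, SE 0.243, adjusted p = 0.00348), where the groups overlapped but the restimulated library was higher in 6 of 6 numbers. Without TH1 effector numbers 5 and 6 and the libraries of the same numbers elsewhere, the TH1 value was log2 0.42 (adjusted p = 0.0069). Exons of Ndrg1 share 419 bases with Gm17035 and 137 bases with Gm2895, both on the other strand.

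Kdm3a (chr6:71588972-71632990, minus strand) encodes a histone demethylase that removes methyl groups from lysine 9 of histone H3. Its median was 213.4 CPM in naive libraries (175 to 232.96), 135.1 in activated naive (125 to 173.4), 182.8 in TH1 effector (175.8 to 215.5) and 103.3 CPM in reactivated TH1 libraries (88.75 to 119.9). Naive and TH1 effector libraries lay above activated naive and reactivated TH1 libraries, and naive and TH1 effector libraries overlapped. Kdm3a fell by 0.53 on the log2 scale in naive cells (SE 0.098, adjusted p = 1.29e-06) and by 0.88 in TH1 cells (SE 0.0859, adjusted p = 2.77e-10). Naive and TH1 effector cells did not differ beyond their spread (log2 -0.13, SE 0.0596, adjusted p = 0.144).

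**Figure D2:**
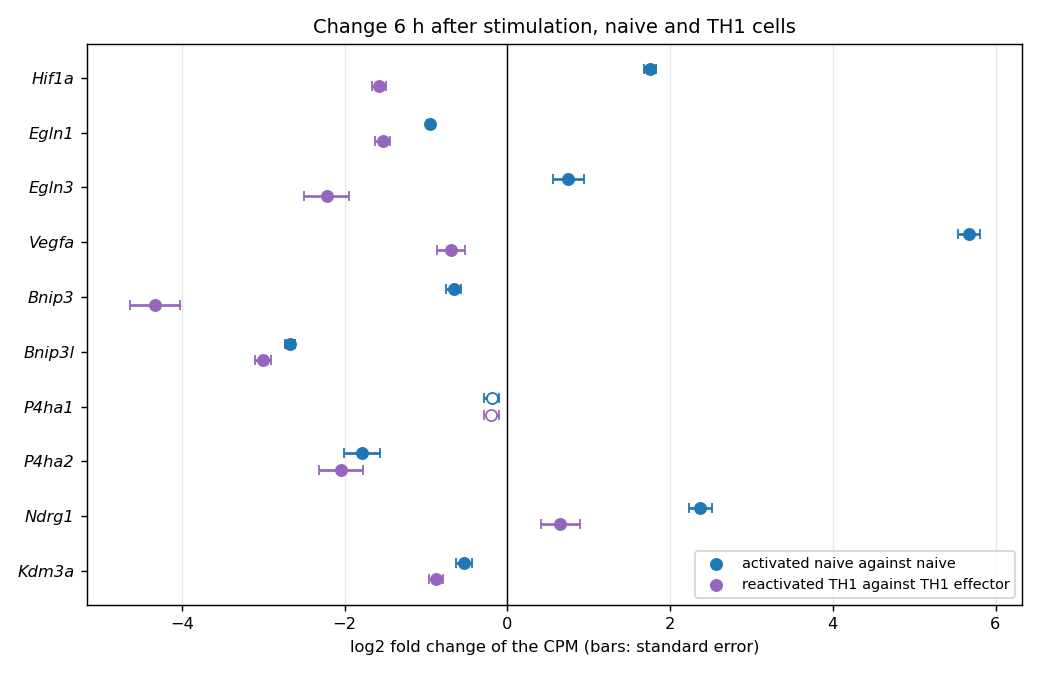
Log2 fold change of each member 6 h after stimulation in naive cells and in TH1 cells, with bars of 1 standard error, filled where the test was passed and open where it was not. Hif1a, Egln3 and Vegfa lie above 0 in naive cells and below 0 in TH1 cells, Ndrg1 lies above 0 in both, and P4ha1 is open in both.

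The TH1 response was then set against the naive response within the same model, as the difference of the 2 log2 fold changes. The stimulus of the naive cells is not named, so cell state and stimulus cannot be told apart here. In 8 of the 10 members the TH1 response was the lower one and in none the higher, against 33.7% and 34.3% of all genes, with medians of -1.15 over the members and -0.00387 over all genes. The largest differences were those of Vegfa (-6.36, SE 0.218, adjusted p = 4.45e-16), Bnip3 (-3.68, SE 0.322, adjusted p = 7.69e-09) and Hif1a (-3.33, SE 0.117, adjusted p = 2.18e-17). Egln3 differed by -2.97 and Ndrg1 by -1.72, while Egln1, Kdm3a and Bnip3l differed by -0.58, -0.35 and -0.34. P4ha1 and P4ha2 did not pass, at -0.00307 (SE 0.127, adjusted p = 0.995) and -0.26 (SE 0.352, adjusted p = 0.623). In the library set with numbers 4 to 6 alone, 5 members passed, against 53.3% of all genes in either direction, a count near the background without direction. These 5 were all lower, where 3364 of 12470 genes were lower and 3278 higher. Egln1 (adjusted p = 0.0987), Kdm3a (0.0644) and Bnip3l no longer passed there. Kdm3a also missed the threshold in the other set (0.0676) and without numbers 5 and 6 of every group (0.0541). For Bnip3l, whose falls were 6.37-fold and 8.04-fold, the difference in that set was -0.16 (adjusted p = 0.5).

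The members did not vary alike within the TH1 effector group. Number 5 was the lowest library for 9 of the 10 members and number 6 the next lowest for the same 9, whereas for Hif1a number 5 was the highest. The share of all tested genes with this order of libraries was not computed, so the count has no background beside it. Hif1a stood at 2058 CPM in number 5 and 2008 in number 6, against 1326 to 1892 CPM in the other libraries. For Egln3 the same libraries had 238.05 and 346.7 CPM, against 550.5 to 819.8 CPM in the others. Bnip3 had 103 and 147.8 CPM there, against 220.4 to 263.3 CPM. P4ha2 had 23.58 and 38.92 CPM, against 65.64 to 86.95 CPM, and Ndrg1 61.75 and 82.71 CPM, against 151.8 to 207.8 CPM. Kdm3a varied least, with 175.8 and 176.8 CPM against 180.5 to 215.5 CPM. So numbers 5 and 6, with the most Hif1a transcript, had the least of the 9 targets. Hif1a also followed the numbers, at 1326 to 1559 CPM in numbers 1 to 3 and 1892 to 2058 CPM in numbers 4 to 6. Number 4, next in Hif1a, lay above the group median for Bnip3, Bnip3l and P4ha2 and below it for the other targets. In reactivated TH1 libraries number 1 was highest for 8 members and number 5 lowest for 6, and Hif1a was lowest in number 5, at 480.8 CPM. The labels name no difference between these libraries. In TH1 effector numbers 5 and 6 the B cell markers summed to 5.88 and 5.43 CPM, within the range of the other 4, and the macrophage markers to 6.25 and 5.52 CPM, number 5 lying above the others (5.1 to 5.64 CPM). Number 5 also had the lowest gene counts of the group (20940635) and the highest share of reads without a counted feature (19.23%, against 14.76% to 18.05% in the others). The part of these values in the pattern was not tested.

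**Figure D3:**
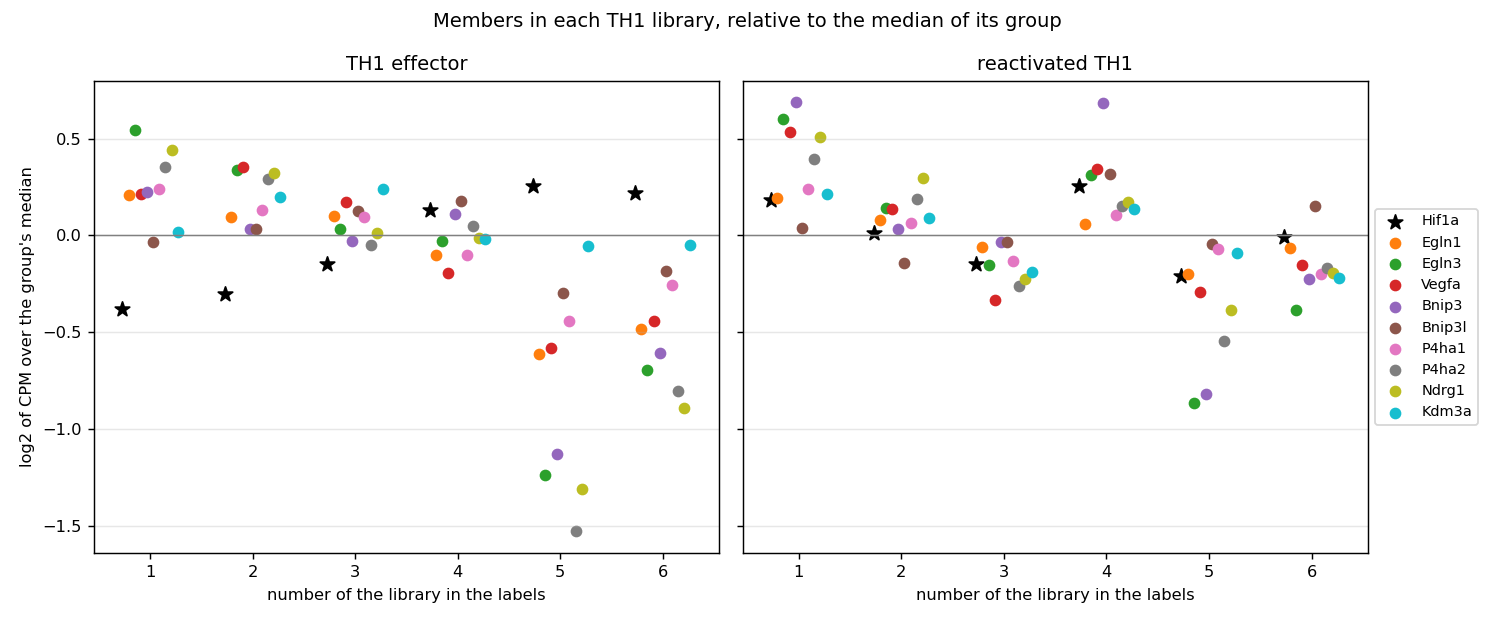
Each member's CPM in each TH1 library as the log2 ratio to the median of its group, for TH1 effector (left) and reactivated TH1 cells (right), by library number, with Hif1a as black stars. In TH1 effector numbers 5 and 6 the star lies above 0 and the other 9 members below it.

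Leaving out numbers 5 and 6 of all groups, a choice made after these values were seen, kept the number of members that passed at 9 in the first stimulation, 9 in TH1 effector against naive and 10 in TH1 effector against activated naive cells, where 79.1%, 82.9% and 84.8% of all tested genes passed in either direction. It gave 10 in place of 9 on restimulation (77.1% of all genes), where P4ha1 then passed as lower (log2 -0.29, adjusted p = 0.0133). The libraries also fall into 2 sets by a code in their file names, numbers 1 to 3 and numbers 4 to 6, each with 3 libraries of every group. Within these sets 9 and 7 members passed in the first stimulation, 9 and 9 in TH1 effector against naive cells, and 9 and 9 on restimulation. The shares of all tested genes that passed there in either direction were 76.2% and 74.3%, 79.9% and 76.6%, and 73.6% and 69.2%. Taken without direction, these counts lie near the background. By direction, 9 members were higher and 0 lower in TH1 effector against naive cells in each set. Over all genes 5539 were higher and 4732 lower there in the first set, of 12848 tested. In the second set 5088 were higher and 4461 lower, of 12470. Egln3 and Bnip3 were the members that no longer passed in the second set in stimulated naive cells, at log2 fold changes of 0.77 (adjusted p = 0.164) and -0.51 (adjusted p = 0.326). On restimulation the first set had 9 members lower and 0 higher, since Ndrg1 missed the threshold there (log2 0.36, adjusted p = 0.0553) and P4ha1 passed (log2 -0.37, adjusted p = 0.00614). In the second set Vegfa and Ndrg1 did not pass between TH1 effector and activated naive cells (adjusted p = 0.0568 and 0.174), nor did Bnip3l between the 2 stimulated groups (0.0644) or Bnip3 between reactivated TH1 and naive cells (log2 0.63, adjusted p = 0.185). No member that passed changed direction within a set.

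Set against each other per kilobase of merged exon, the members covered a wide range of levels. Hif1a was the highest in TH1 effector cells, at 290 CPM per kb (SD 54.1), followed by Egln3 at 203 (SD 81.8) and Bnip3 at 88.9 CPM per kb (SD 27.4). In naive cells Bnip3l led at 39 CPM per kb (SD 3.54), ahead of Kdm3a at 25.3 and Egln1 at 24.8 CPM per kb, and Hif1a stood at 19.2 CPM per kb. Hif1a led again in activated naive and reactivated TH1 cells, at 64.8 and 95.7 CPM per kb. P4ha2 was the lowest member in every group, from 0.0858 CPM per kb in activated naive to 9.85 in TH1 effector cells, below P4ha1 at 9.6 and 34.2 CPM per kb.

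The genes whose course over the 24 libraries came closest to each member were found by the root mean square difference of log2 levels centred per gene, over 9608 genes of at least 10 CPM in their highest group. Rnf19b came closest to Hif1a, at 0.297, where the own spread of Hif1a was 1.41. For Egln3 it was the glycolytic enzyme gene Tpi1, at 0.435 of an own spread of 2.96, and for Egln1 it was Gyg, at 0.224 of 0.892, followed by Hk1, a hexokinase gene, at 0.234. Gpt2 and Il2ra, which encodes the alpha chain of the interleukin 2 receptor, came closest to Vegfa, at 0.429 and 0.54 of 2.55. P2ry14 was nearest to Bnip3, at 0.719 of 2.29, and Rala to Kdm3a, at 0.142 of 0.425. Nearest to Bnip3l, P4ha1, P4ha2 and Ndrg1 were 3110057O12Rik (0.323 of 1.44), Chek2 (0.171 of 0.837), Fam19a3 (0.522 of 2.64) and Ckap4 (0.376 of 1.52). The libraries of a group share its state, so these distances are descriptions.

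Around the members, a list of 20 genes that control HIF was measured in full. After the first stimulation 50% rose and 45% fell (10 and 9 genes), against 41.3% and 40.5% of all genes, and in TH1 effector against naive cells 55% rose and 45% fell (11 and 9), against 44.6% and 40.3%, both near the background. On restimulation of TH1 cells 25% rose and 45% fell (5 and 9), against 39.9% and 39.8%, with a list median of -0.09. Epas1, which encodes HIF2 alpha, fell where Hif1a rose, in stimulated naive and in TH1 effector cells against naive ones, and fell with Hif1a on restimulation, with 34.4 CPM in naive cells, 9.59 CPM once these were stimulated, 1.2 CPM in TH1 effector cells and 0.309 CPM once those were restimulated. Its log2 fold change from naive to TH1 effector cells was -4.85 (adjusted p = 3.55e-18). Hif3a, whose products include inhibitors of the factor, was 7.39-fold higher in TH1 effector than in naive cells and 6.11-fold lower on restimulation. Hsp90ab1 and Hsp90aa1, chaperones that stabilise the alpha subunit, rose 3.62-fold and 3.51-fold after the first stimulation and 1.57-fold and 1.82-fold on restimulation. Cited2, an inhibitor that competes for the coactivators of HIF, fell 4.37-fold in stimulated naive cells. Crebbp, which encodes such a coactivator, was 3.27-fold lower in TH1 effector than in naive cells, and Ep300, its relative, fell 1.43-fold on restimulation.

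Glycolytic HIF targets moved together in TH1 cells. Of 22 tested, 19 were higher in TH1 effector than in naive cells and 2 lower (Pdk1 and Pfkfb4), 86.4% and 9.09% against 44.6% and 40.3% of all genes, with a median log2 fold change of 2.72. On restimulation 21 fell and only Pfkfb3, an activator of glycolytic flux, rose (2.21-fold), 95.5% lower against 39.8% of all genes, with a median of -1.20. After the first stimulation of naive cells 13 rose and 7 fell (59.1% and 31.8%, against 41.3% and 40.5%), with a median of 0.84. The TH1 response was the lower one in 18 and the higher one in 1, Pdk1 (81.8% and 4.55%, against 33.7% and 34.3% of all genes). Hk2, a hexokinase gene, averaged 0.14 and 59.5 CPM in naive cells before and after stimulation, and 310 and 230 CPM in TH1 cells before and after restimulation. Slc16a3, the lactate exporter gene, averaged 0.348, 8.52, 261 and 37.6 CPM in the same order, and Aldoc 1.49, 0.101, 102 and 11.7 CPM. Pdk1, which encodes a kinase that holds back pyruvate oxidation, was highest in naive cells, at 692 CPM, and fell 16.7-fold on their stimulation. Eno1 did not reach the filter, at 0.0733 CPM or less in each group. Reads of glycolytic genes with near-identical copies in the genome may have been split or dropped in the counting, so the levels of Eno1, Tpi1 and Gapdh are uncertain.

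Of 50 other HIF targets, 43 were tested. In TH1 effector against naive cells 31 rose and 9 fell (72.1% and 20.9%, against 44.6% and 40.3% of all genes), with a median of 2.46. On restimulation 12 rose and 24 fell (27.9% and 55.8%, against 39.9% and 39.8%), with a median of -0.77. After the first stimulation 22 rose and 15 fell (51.2% and 34.9%, against 41.3% and 40.5%), with a median of 0.78. The TH1 response was the lower one in 24 and the higher one in 7 (55.8% and 16.3%, against 33.7% and 34.3% of all genes). Vldlr, a lipoprotein receptor gene, had no count in naive libraries and 46.7 CPM in TH1 effector ones, at least 2420-fold higher against a floor of 3 counts over the group, and fell 14.4-fold on restimulation. Stc2 had no count in naive libraries either and was at least 985-fold higher in TH1 effector cells. Bhlhe40, a transcription factor gene, rose 274-fold after the first stimulation. Pdgfb, a growth factor gene, rose from 0.0239 to 16.3 CPM there and 24-fold on restimulation, to 190 CPM. Nos2 rose 6.62-fold on restimulation, to 12.7 CPM. Macrophage markers summed to 14.7 to 21.1 CPM in those libraries, and the part of macrophages in the rise of Nos2 was not tested. Narf and Mxi1 fell 29.2-fold and 13.6-fold after the first stimulation, and Zfp395 fell 6.05-fold on restimulation. With the genes at 0 set at their bounds the medians were the same.

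Relatives of the members were also followed, 22 of 25 tested. After the first stimulation 6 rose and 10 fell, in TH1 effector against naive cells 12 rose and 8 fell, and on restimulation 5 rose and 13 fell, with medians of -0.25, 0.41 and -0.44. The shares were 27.3% and 45.5%, 54.5% and 36.4%, and 22.7% and 59.1%, beside those of all genes given above. The TH1 response was the lower one in 7 and the higher one in 5 (31.8% and 22.7%), not above the 33.7% and 34.3% of all genes. Egln2, the third prolyl hydroxylase gene of the family, fell where Egln1 and Egln3 rose, from 77.2 CPM in naive to 47.3 CPM in TH1 effector cells (log2 -0.71, adjusted p = 2.64e-10). P4hb, the partner subunit of P4ha1 and P4ha2, rose 3.64-fold after the first stimulation. Plod2, a collagen lysyl hydroxylase gene, was 220-fold higher in TH1 effector than in naive cells. Ndrg2 and Ndrg3, relatives of Ndrg1, fell 7.76-fold and 7.36-fold after the first stimulation, where Ndrg1 rose, and Ndrg2 fell 15-fold on restimulation. Nrp1, a coreceptor for Vegfa, rose 2.48-fold and 8.56-fold with the 2 stimulations. Between reactivated TH1 and activated naive cells the 4 lists, in the order given, had 7, 16, 27 and 10 genes higher and 9, 3, 8 and 6 lower. The shares higher were 35%, 72.7%, 62.8% and 45.5%, against 43.4% of all genes. Those lower were 45%, 13.6%, 18.6% and 27.3%, against 36.4%. The lists were written with earlier results of these data known, so their counts describe them and support nothing further.

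**Figure D4:**
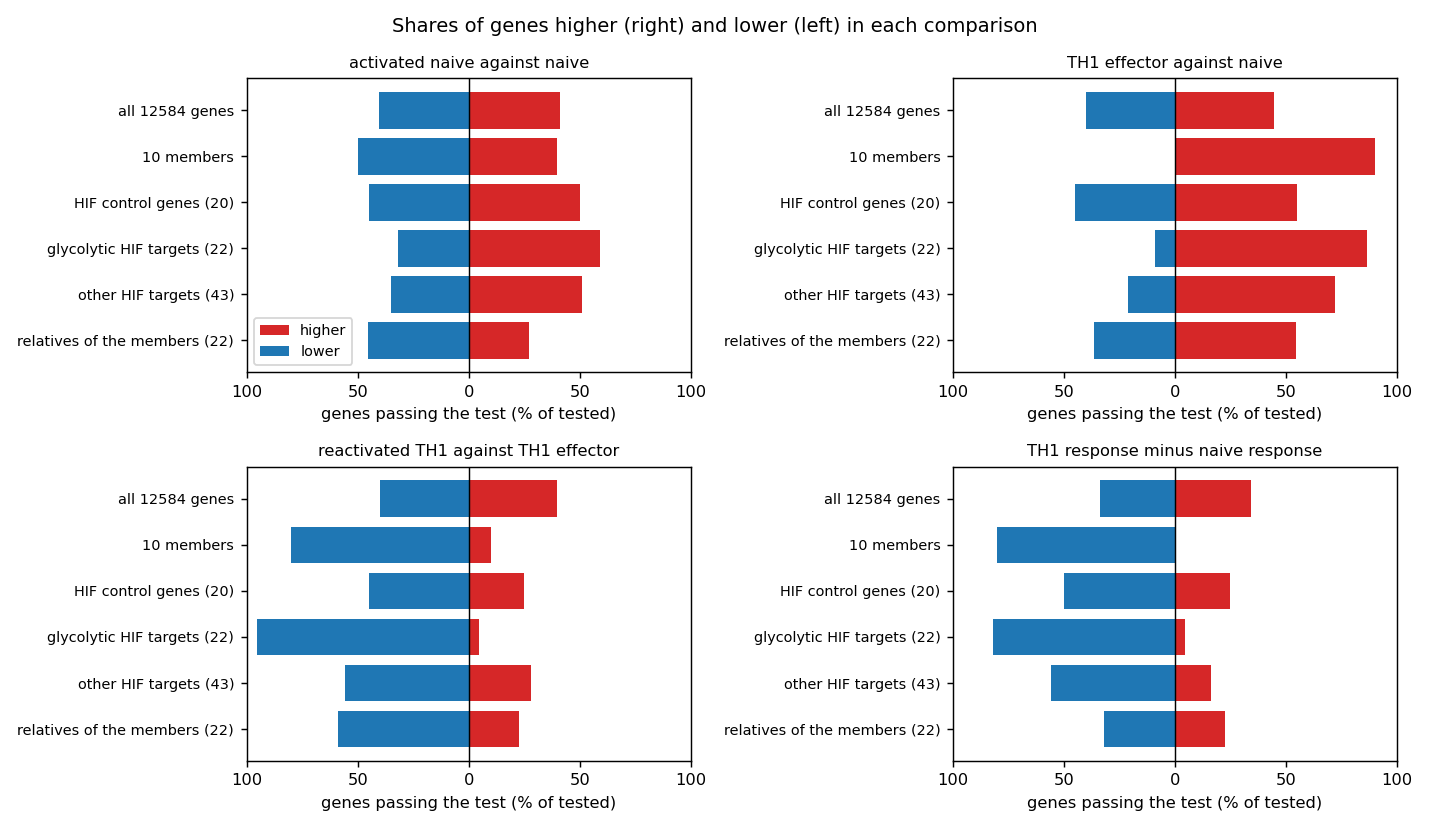
Percent of tested genes that passed as higher (right, red) or lower (left, blue) for all 12584 genes, the 10 members and the 4 lists, in 4 comparisons. The glycolytic targets lie to the right in TH1 effector against naive cells (19 of 22) and to the left on restimulation (21 of 22), whereas the bars of all genes are nearly even.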

How the data were processed

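The deposited files, 1 per library, list raw integer counts by gene symbol. Their 5 closing lines hold reads given to no gene and were left out throughout. Per the labels' protocols, libraries were made with a TruSeq Stranded kit. The tools named in the submitters' processing notes are STAR, HTSeq and DESeq2, with build mm10, and what each did, its version, the annotation and the strand setting are not given there. Reads without a counted feature came to 13.22% to 24.45% of the sum of a library's gene counts and its 5 closing lines, lower in TH1 than in naive groups.

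Tests used edgeR 4.0.16 (limma 3.58.1, R 4.3.3). After filterByExpr and TMM scaling, 1 robust quasi-likelihood model took in the 24 libraries, its terms being group and library set (the file-name code). Adjusted p-values are Benjamini-Hochberg values over all 12584 genes with a threshold of 0.05, and folds come from this model. The SE is that of the difference of group means of log2 CPM (prior count 0.5) within sets. No 2 libraries of a group were alike within sampling noise. The fits were tested on simulated data. Same-numbered libraries deviated together (r over 0.1 in 6 of 6 pairs) in 5 of the 6 pairwise comparisons, and in 5 of 6 pairs in activated naive against naive. The model above has no term for the numbers, so its p-values are unpaired. A fit with such a term, the replicate block, was run as an alternative. The likeness of same-numbered libraries comes from the data, and the labels name no pairing.

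Genes beside the members were named by a rule: per list and comparison, up to 2 of the largest rises and 2 of the largest falls among those that passed and reached 10 CPM in the higher of the groups. For likeness the 3 nearest genes were found, of which the nearest is named. The second is named for Egln1 and Vegfa only, which no rule picked. Egln2, Eno1 and Gapdh were named after their values were seen. The members and lists were chosen with earlier results of these data known. Alternatives were other scalings, DESeq2 1.42.0, no filter, other covariates, each set alone, and each library left out. Gene positions are from GENCODE M21 and promoters from RefSeq.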

Additional observations from a re-analysis of the deposited data

Results flagged for a closer look

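In 8 members the TH1 response differed from the naive response by the test of the difference itself, on the log2 scale by -3.33 for Hif1a, -0.58 for Egln1, -2.97 for Egln3, -6.36 for Vegfa, -3.68 for Bnip3, -0.34 for Bnip3l, -1.72 for Ndrg1 and -0.35 for Kdm3a. Over all tested genes 68% passed this test in either direction, so the count without direction lies near the background. Egln1, Bnip3l and Kdm3a did not pass in the library set with numbers 4 to 6 alone. Hif1a, Egln3 and Vegfa moved in opposite directions in the 2 states, and the other 5 moved the same way by different amounts.

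A single library stood apart from the other 5 of its group in 2 of the 40 sets of 6 values. Bnip3l had 26.26 CPM in number 6 of the activated naive group, where the others had 22.41 to 23.64 CPM. P4ha1 had 39.2 CPM in number 1 of the naive group, where the others had 45.03 to 47.98 CPM. Chance gives about 1 such library in 20 sets. Without the naive number 1, P4ha1 passed the test as lower after the first stimulation (log2 -0.25, adjusted p = 0.0201).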

How the results depend on the processing

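Over 34 other settings, 1610 of 1650 member values kept their side of the threshold, 21 lost the call and 19 gained one. No value that passed in the main fit or in the other setting changed direction. Values that passed in neither could change sign. Vegfa in reactivated TH1 against activated naive cells ranged from log2 -0.18 to 0.02. The number of members whose TH1 and naive responses differed was 8, beside 68% of all genes. It came to 5 in the library set with numbers 4 to 6 alone, beside 53.3% of all genes. Every other count of members or of all genes stayed within 1.5 times its value. Leaving out single libraries moved the number of members called to between 7 and 10 in the first stimulation, 9 and 10 on restimulation, and nowhere in the other 5 comparisons. The values that depended on a setting most often were P4ha1 in both stimulations and Egln3 and Bnip3 in stimulated naive cells; the cause was not tested. With library totals as the only scaling, the median of all genes was -0.14 in the first stimulation, -0.12 on restimulation and 0.20 in TH1 effector against activated naive cells, against 0.00464, -0.00227 and 0.07, and Egln1 then passed as lower in reactivated TH1 than in naive cells (adjusted p = 0.0491). The replicate block gave P4ha1 an adjusted p of 0.041 after the first stimulation and 0.0394 on restimulation, and it changed no other call of a member. In both comparisons 5 of 6 pairs correlated best with their own number. With DESeq2, P4ha1 passed on restimulation (adjusted p = 0.0143). Depth limited P4ha2 in activated naive cells, at 9 to 18 counts per library.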
